A study of Mus musculus with 35 samples.

Results

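LINE-1 (L1) elements are the most common autonomous retrotransposons of the mouse genome, and 143 of the 18536 repeat names in the deposited repeat table begin with L1 or Lx. These 143 names were taken as the L1 subfamilies. They comprised 25 L1Md subfamilies, the young mouse group, and 118 older subfamilies: 85 L1M, 21 Lx, 5 L1Lx and L1_Rod, 5 L1_Mur, L1_Mus and L1VL, and 2 L1P. The L1Md names divide into lineages, of which A, Tf and Gf (12 names) contain the elements known to still move, while F, Fanc, Mus, N and V (13 names) are older lineages of the same group. Membership rested on the name alone and used no measured value.

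A full-length L1 carries an internal promoter in its 5′ end and encodes an RNA-binding protein and an enzyme with endonuclease and reverse transcriptase activity, with which it copies its own RNA back into the genome. Most genomic copies are truncated at the 5′ end and cannot move, and many lie inside introns or untranslated regions of genes, so that their sequence can be carried in transcripts started elsewhere. In mouse embryos L1 transcription is known to be active from the zygote onwards and to be silenced later by DNA methylation, histone H3K9 methylation and the HUSH complex. Old subfamilies such as L1M and L1P have accumulated many mutations and have no known active copies.

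Total RNA of 35 samples of C57BL/6NRj mouse embryos had been sequenced, of wild-type genotype throughout. Zygotes were collected 17 h after ovulation and early 2-cell (2C) embryos between 5.5 and 8 h after division. The Kdm5b groups (10 zygotes and 6 2C samples) had been injected with Kdm5b-yfp mRNA at about 1150 ng/µl, the message of a fusion of YFP with KDM5B, an enzyme that removes methyl groups from H3K4, and the ctrl groups (10 zygotes and 9 2C samples) with water. The paper states that zygote groups were injected as zygotes, and 2C groups in both blastomeres after division to 2C. The 2C samples were thus not embryos injected as zygotes, and stage of injection cannot be told apart from stage of collection. No other mRNA was injected, so the injection of an mRNA and the action of KDM5B cannot be told apart. Of the 2C samples, 1 ctrl sample was a pool of 2 blastomeres, and 2 ctrl samples and 1 Kdm5b sample were pools of 3; the others were single intact embryos. The 2C embryos developed from thawed zygotes and were turned into libraries on a separate day, and neither freezing nor library day can be told apart from stage.

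Between 134440 and 263578 fragments per sample were assigned to L1, out of 4131205 to 7284589 repeat fragments. The gene table held 8705584 to 17797581 fragments per sample. Kdm5b took up 2.30% to 10.4% of the gene fragments in Kdm5b zygotes and 8.27% to 15.8% in Kdm5b 2C samples, against at most 0.0189% in any ctrl sample, which matches the labels. MERVL, the repeat that marks the 2C stage, ranged from 799 to 14933 fragments per 1000000 repeat fragments in zygotes and from 26975.5 to 210082 in 2C samples. Repeat fragments per gene fragment had a median of 0.345 in ctrl zygotes, 0.349 in Kdm5b zygotes, 0.576 in ctrl 2C and 0.533 in Kdm5b 2C samples. A level scaled by repeat totals therefore moves differently between the stages from one scaled by gene totals, and both are given, as fragments per 1000000 repeat fragments (repeat-scaled) and per 1000000 gene fragments without Kdm5b (gene-scaled). Neither scale gives the amount of L1 RNA per embryo.

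L1 made up 3.83% of the repeat fragments of all samples together, less than SINEs (5.59%) and far less than MT and related LTR elements (37.2%). Within L1, the 25 L1Md subfamilies held 37.6% of the fragments and the 118 older subfamilies 62.4%. The largest older classes were Lx with 32.5%, L1M with 14.6% and L1Lx with L1_Rod at 11.1%. Among L1Md lineages, V held 14.4%, A 6.15%, Fanc 5.71%, F 4.94%, Tf 3.53%, Mus 2.08%, Gf 0.662% and N 0.197%. These are shares of fragments and not levels per length, since the length covered by each subfamily is not in the table.

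Fragments that matched several repeat names had been divided among them by the authors' counting model, and this touched the classes unequally. Of the L1Md values, 98.9% were not whole numbers, as were 98.5% of the Lx values, but 40.8% of the L1M values and 4.59% of the values of repeats other than L1. Values of 0 count as whole in these shares. Among values above 0 the shares were 98.9% for L1Md, 98.5% for Lx, 42.0% for L1M and 22.3% for repeats other than L1. The split between closely related L1Md names, such as L1MdA_I and L1MdA_II, thus rests on that model. A fragment also counts towards a subfamily whether it came from an L1 transcript or from a gene that contains an L1 copy.

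The share of L1 fragments that came from L1Md differed between the 4 groups by less than the SD within any of them. This measure depends on neither scaling. It was 38.2% ± 3.83 in ctrl zygotes (SD, n = 10), 36.5% ± 2.82 in Kdm5b zygotes (SD, n = 10), 38.2% ± 2.38 in ctrl 2C samples (SD, n = 9) and 37.7% ± 2.06 in Kdm5b 2C samples (SD, n = 6). The single values ran from 33.3% in a Kdm5b zygote to 47.1% in a ctrl zygote, and all 4 ranges overlapped.

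**Figure D1:**
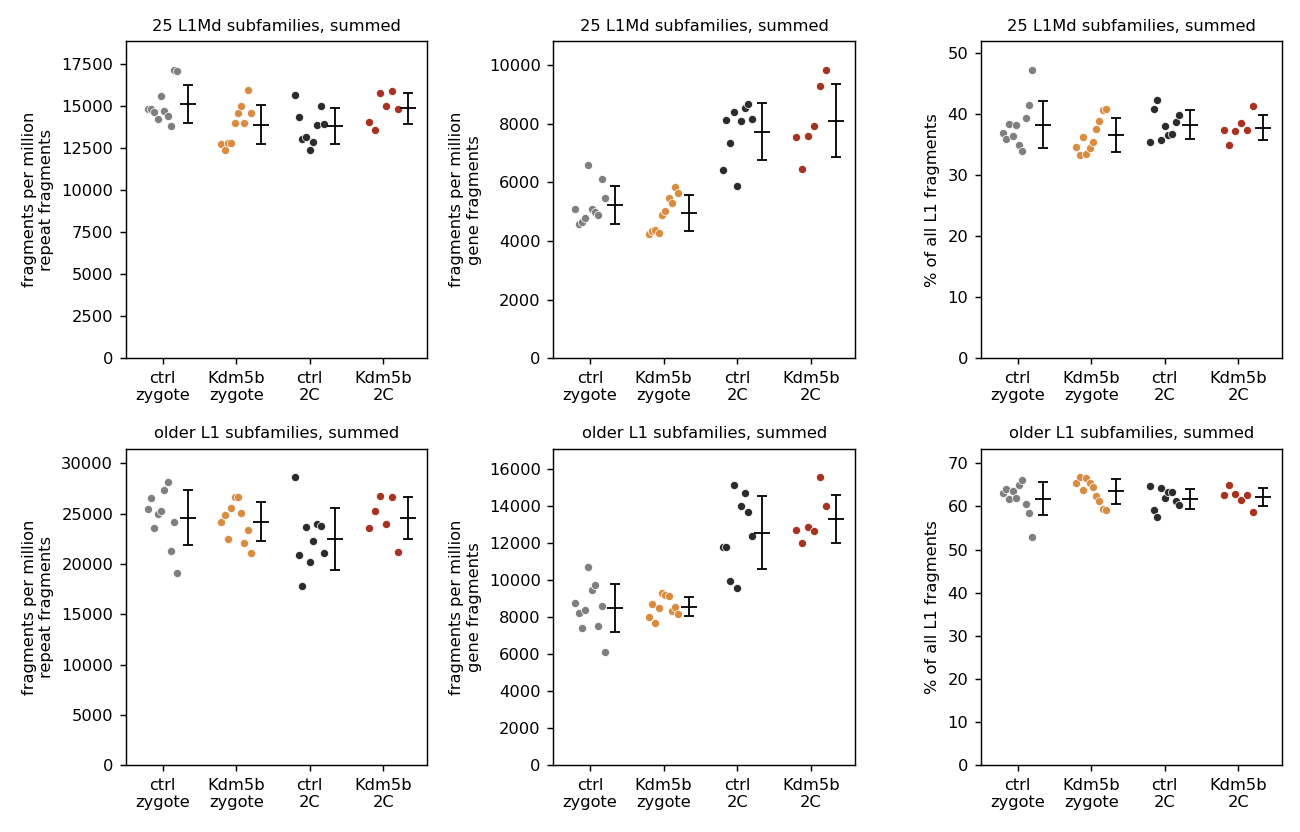
Summed fragments of 25 L1Md (top) and 118 older L1 subfamilies (bottom) in every sample of the 4 groups, repeat-scaled (per 1000000 repeat fragments), gene-scaled (per 1000000 gene fragments) and as % of all L1 fragments; the dash and bar beside each group are its mean and SD. The groups overlap on the repeat scale and in the share, and 2C samples lie higher on the gene scale.

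In ctrl samples the direction in which summed L1 differed between stages depended on the scale, and it did so alike for young and old subfamilies. In Kdm5b samples the 2C mean was the higher on both scales, by an amount that depended on the scale. On the repeat scale, L1Md summed to 15130 ± 1133 in ctrl zygotes (SD, n = 10) and 13809 ± 1072 in ctrl 2C samples (SD, n = 9), a ratio of 0.913. On the gene scale the sums were 5224 ± 657 and 7731 ± 981 and the ratio was 1.48. The older subfamilies gave the same ratios, 0.913 and 1.48. In the Kdm5b groups, 2C samples held 1.07 times the L1Md level of zygotes on the repeat scale and 1.64 times on the gene scale, and for older subfamilies these ratios were 1.01 and 1.55. On the repeat scale the ranges of the stages overlapped in both injections; on the gene scale 7 of 9 ctrl 2C samples and 6 of 6 Kdm5b 2C samples exceeded every zygote of their injection, in L1Md as in the older group. No test was made of a sum.

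Between injections the sums differed by less than 10% on either scale. Summed L1 in Kdm5b zygotes was 0.959 times that of ctrl zygotes on the repeat scale, with 0.919 for L1Md and 0.984 for older subfamilies. In 2C samples the ratio was 1.09 for L1, 1.08 for L1Md and 1.09 for older subfamilies. Ranges overlapped in every case.

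Single L1Md lineages nevertheless differed between the stages, and in opposite directions. Gf went from 0.417% ± 0.147 to 0.872% ± 0.196 of L1 fragments in ctrl samples and from 0.325% ± 0.0773 to 1.16% ± 0.156 in Kdm5b samples. F went from 4.36% ± 0.614 to 5.42% ± 0.690 and from 4.06% ± 0.413 to 6.15% ± 0.971, and A from 5.76% ± 0.269 to 6.49% ± 0.473 and from 5.62% ± 0.292 to 6.89% ± 0.652. Fanc went the other way, from 6.69% ± 0.689 to 4.68% ± 0.585 and from 6.52% ± 0.631 to 4.52% ± 0.436. V, the largest lineage, stood at 15.0% ± 4.49 and 14.9% ± 3.05 in the ctrl stages, with the widest spread of all lineages. These shares are described without a test, and n is 10, 10, 9 and 6 as above.

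**Figure D2:**
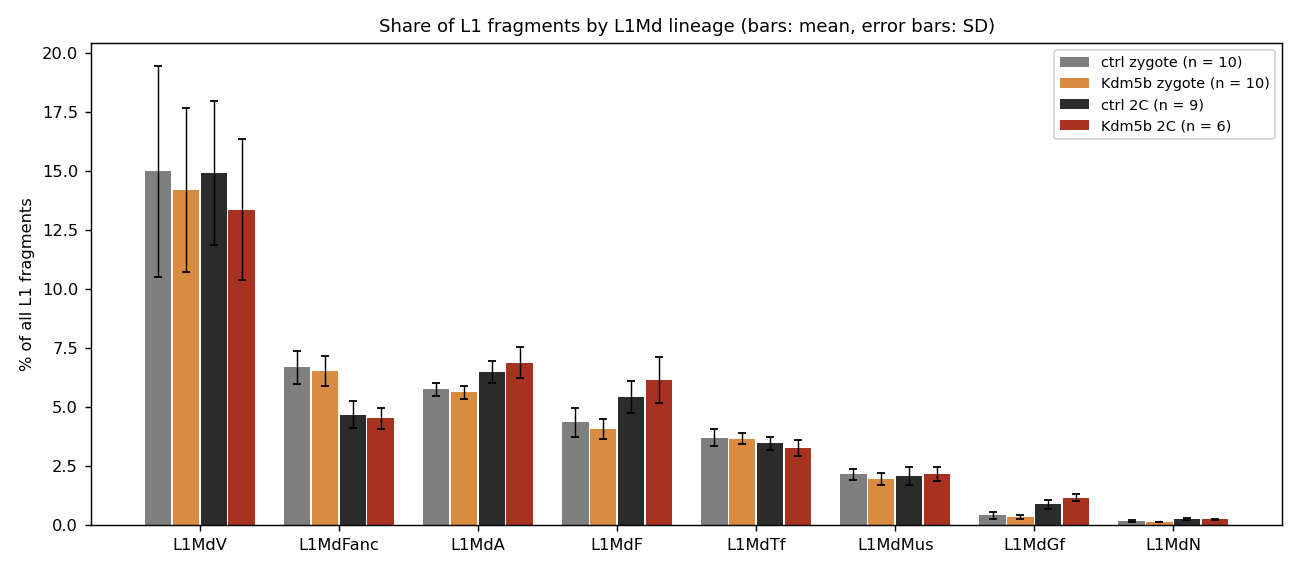
Share of all L1 fragments held by each of the 8 L1Md lineages in the 4 groups, as bars of the mean with the SD. L1MdGf, L1MdF and L1MdA stand higher and L1MdFanc lower in 2C samples than in zygotes, and L1MdV is the largest lineage in each group.

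Between ctrl zygotes and ctrl 2C samples, 17 of 25 L1Md subfamilies rose and 1 fell, and of 110 older subfamilies that could be tested 29 rose and 5 fell. The test was edgeR's quasi-likelihood test over the whole repeat table with Benjamini-Hochberg adjustment, called at an adjusted p under 0.05, with TMM factors from the repeats. Over all 2635 repeats tested, 12.6% were called higher and 12.9% lower, against 34.1% and 4.44% of the 135 L1 subfamilies. Past an absolute log2 fold change of 1 there were 8 L1Md and 3 older subfamilies higher and none lower, where 3.91% of all repeats were higher and 5.65% lower. The median log2 fold change was 0.51 for L1Md, 0.28 for older L1, 0.16 for other repeats apart from simple repeats, and 0.056 for all repeats.

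These counts depended on the scale. With TMM factors from the genes, 24 L1Md and 65 older subfamilies were called higher and 1 older lower, with 32.5% of all repeats higher and 6.79% lower, and the median of all repeats shifted from 0.056 to 0.36. With repeat totals, 10 L1Md and 2 older subfamilies were called higher and 5 L1Md and 24 older lower, with 3.04% of all repeats higher and 37.2% lower and a median of -0.42. Called higher in each of 6 scalings were 10 L1Md subfamilies (A_I, A_II, A_VI, F_I, F_II, F_III, Gf_I, Gf_II, Mus_II and N_I) and 2 older ones (Lx6 and L1_Mur2), and L1_Mur1 was called lower in each. The scalings were repeat and gene totals with and without TMM, DESeq2 size factors, and TMM without simple repeats. They reuse the same counts and are not separate checks. Those higher in each were all those higher with repeat totals, so that scale set the list. Among the 1054 repeats other than simple repeats tested in all 6, 5.22% were higher and 3.51% lower in each. Conversely, 4 L1Md and 9 older subfamilies were called higher under one scaling and lower under another.

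**Figure D3:**
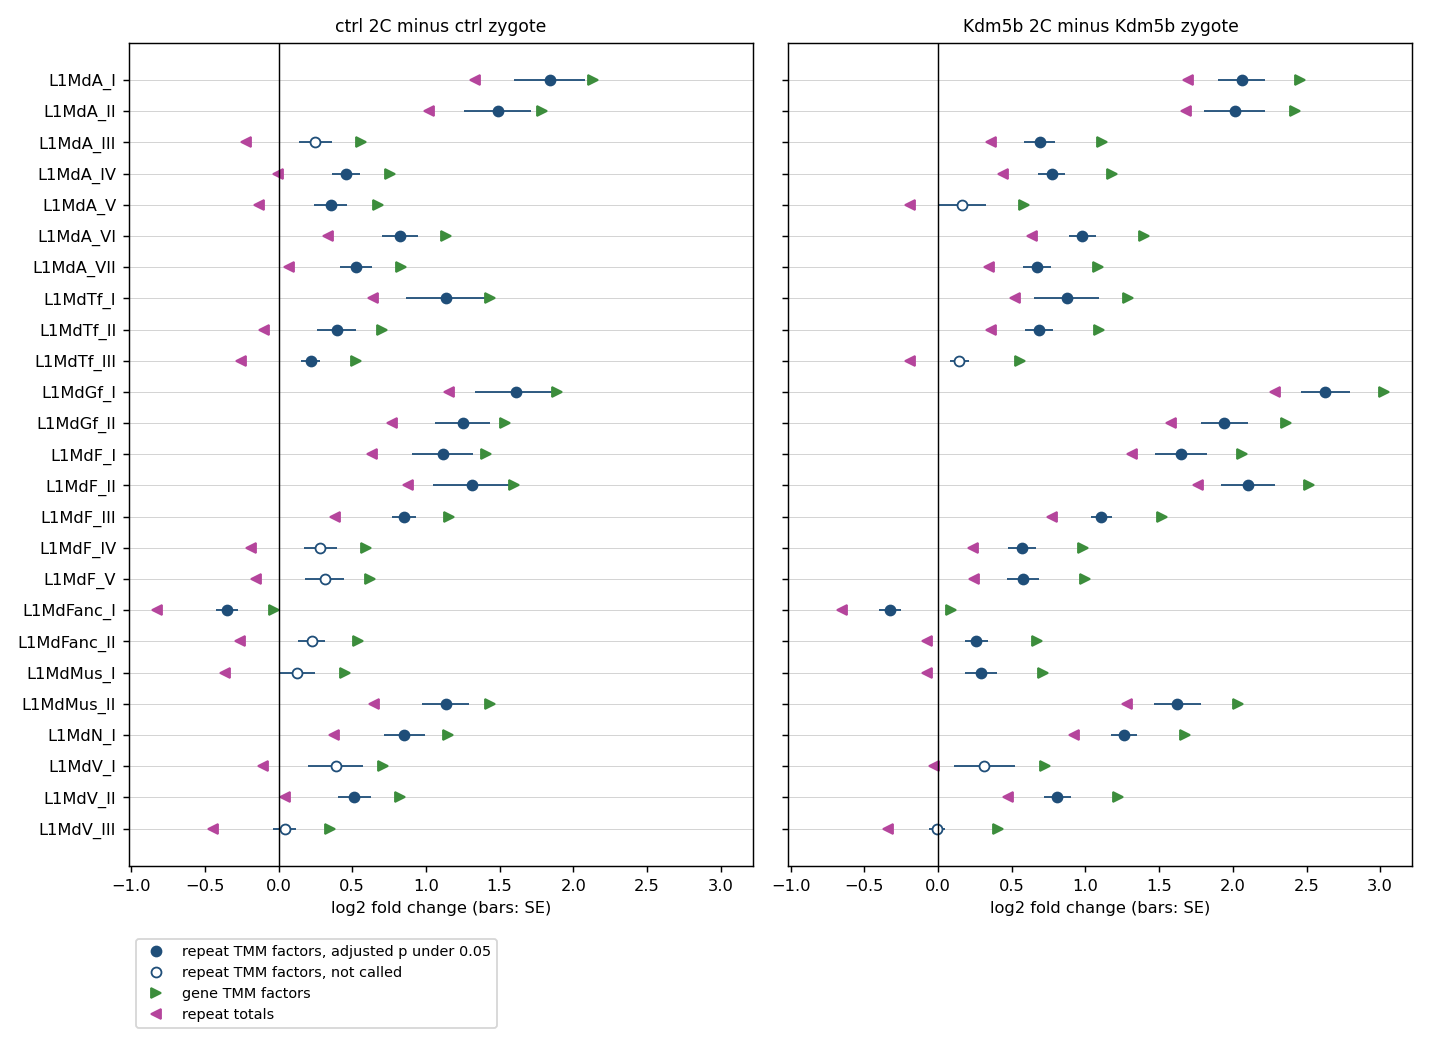
Log2 fold change of 2C over zygote for the 25 L1Md subfamilies in ctrl (left) and Kdm5b (right) samples. Circles with SE bars use TMM factors from repeats and are filled where the adjusted p was under 0.05; right-pointing triangles use gene factors and left-pointing ones repeat totals. A_I, A_II, Gf_I, Gf_II, F_I, F_II, F_III, Mus_II and N_I lie above 0 under all 3, whereas Fanc_I, V_III and Tf_III change side of 0 with the scale in at least 1 panel.

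L1MdA_I, a member of the monomer-promoter A lineage, showed the largest increase among L1Md in ctrl samples with repeat factors. It ranged from 9.06 to 54.0 with a median of 29.9 normalized CPM in ctrl zygotes, and from 36.7 to 162 with a median of 120 in ctrl 2C samples. All 2C samples but 1 exceeded every ctrl zygote. The log2 fold change was 1.84 (SE 0.24, adjusted p = 2.93e-06). Its neighbour L1MdA_II rose by a log2 fold change of 1.49 (SE 0.23, adjusted p = 1.81e-05), from a median of 79.0 to 207 normalized CPM.

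The other A members changed less. A_VI rose by 0.82, A_VII by 0.52, A_IV by 0.45 and A_V by 0.35 on the log2 scale, but with repeat totals the estimates of A_IV (-0.0068) and A_V (-0.13) turned to the other side of 0. A_III, at medians of 503 and 612 normalized CPM, had a log2 fold change of 0.25 and did not pass with repeat factors (adjusted p = 0.106).

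In the Gf lineage both members rose. L1MdGf_I ranged from 9.06 to 109 with a median of 54.3 normalized CPM in ctrl zygotes and from 65.2 to 266 with a median of 180 in ctrl 2C samples, and 7 of 9 2C samples were above every zygote. Its log2 fold change was 1.61 (SE 0.28, adjusted p = 1.11e-04). L1MdGf_II rose by 1.25 (SE 0.19, adjusted p = 1.49e-05) and its 2C samples, from 161 to 273, did not overlap the zygotes, from 29.3 to 147.

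The Tf lineage was divided by level. L1MdTf_I, the L1Md name with the fewest fragments and a median of 19.7 normalized CPM in ctrl zygotes and 36.1 in ctrl 2C samples, rose by 1.14 (SE 0.27, adjusted p = 0.00275). Tf_III, at medians of 1161 and 1302, rose by 0.22 with repeat factors (adjusted p = 0.0136), but fell by 0.25 on the log2 scale with repeat totals. Tf_II lay between, at 0.39 with repeat factors and -0.10 with repeat totals.

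Among the older L1Md lineages F_I, F_II and F_III rose and the rest of F did not pass. L1MdF_III went from 378 to 628 normalized CPM in ctrl zygotes (median 511) to 831 to 1089 in ctrl 2C samples (median 915). The groups did not overlap, and the log2 fold change was 0.85 (SE 0.08, adjusted p = 2.11e-08). F_II rose by 1.31 and F_I by 1.11, whereas F_IV (0.28) and F_V (0.31) had adjusted p-values of 0.0689 and 0.0799 with repeat factors. Mus_II rose by 1.13 and N_I by 0.85.

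**Figure D4:**
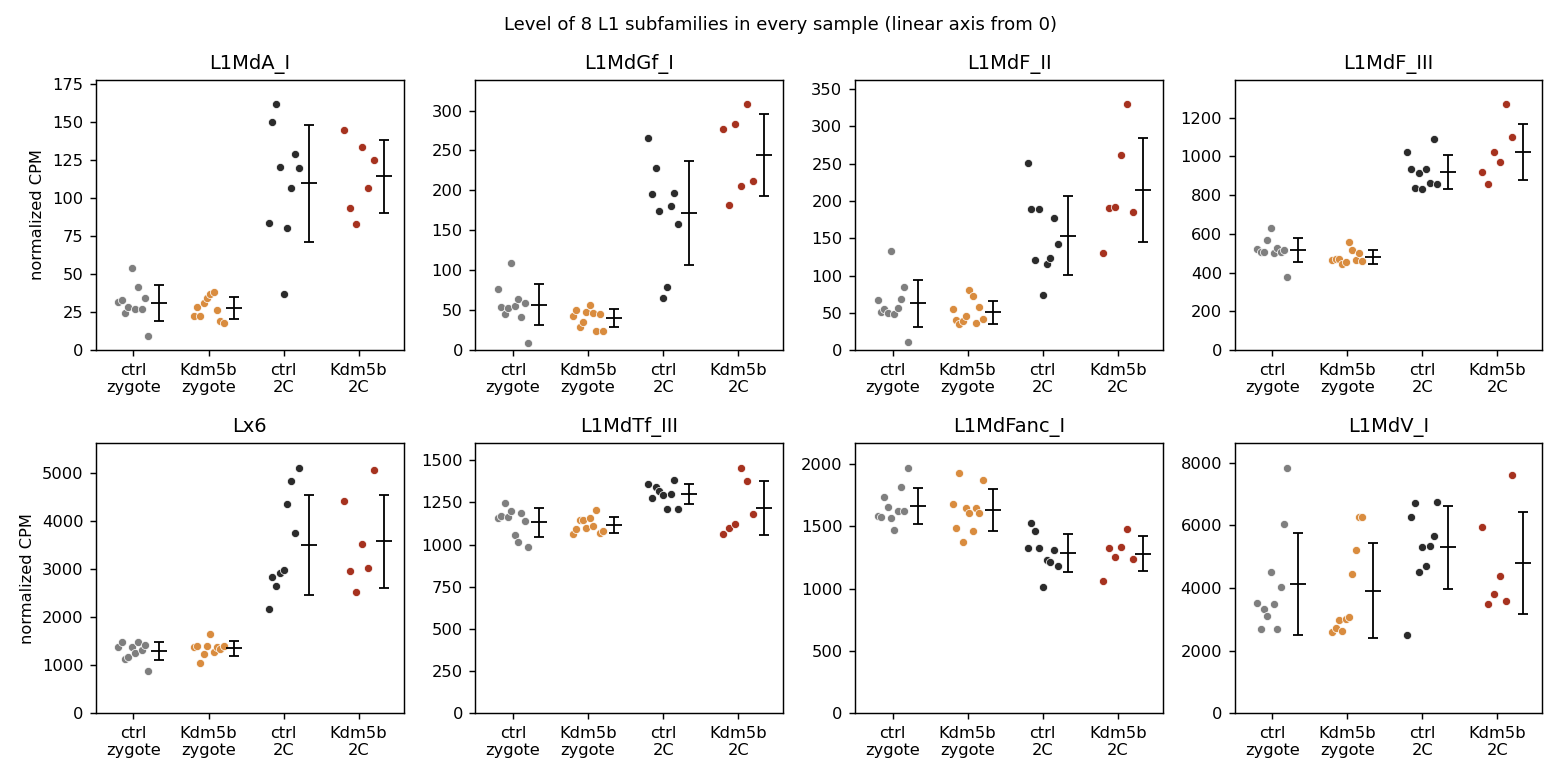
Normalized CPM (linear axes from 0) of 8 L1 subfamilies in each sample, with the mean and SD of each group. L1MdF_III and Lx6 separate the stages without overlap, the stages of L1MdA_I, L1MdGf_I and L1MdF_II overlap in ctrl but not in Kdm5b samples, and L1MdTf_III, L1MdFanc_I and L1MdV_I overlap between stages.

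L1MdFanc_I and L1MdV_I, which held many fragments, showed stage differences that depended on the scale. L1MdFanc_I ranged from 1470 to 1971 normalized CPM in ctrl zygotes (median 1624) and from 1018 to 1528 in ctrl 2C samples (median 1307), with 8 of 9 2C samples below every zygote. It fell by 0.35 on the log2 scale (SE 0.08, adjusted p = 0.00106), but with gene factors the estimate was -0.034 and did not pass. L1MdV_I, to which the most L1Md fragments were assigned, had a median of 3500 in ctrl zygotes and 5333 in ctrl 2C samples and a log2 fold change of 0.39 (adjusted p = 0.127), against 0.71 with gene factors (adjusted p = 0.00261). V_II rose by 0.51, while V_III (0.043), Fanc_II (0.23) and Mus_I (0.12) did not pass.

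L1MdV_I also varied with the index strip. Strips are sets of 8 consecutive library index numbers, inferred here from the index numbers in the labels, and no source used here states that they were batches. The 2 ctrl zygotes of strip 10 had 6029 and 7842 normalized CPM and the 2 Kdm5b zygotes of that strip 6264 and 6273. In strip 8 the values were 2701 to 3516 for 4 ctrl and 2597 to 2995 for 4 Kdm5b zygotes, and in strip 9 they were 2692 to 4525 and 3012 to 5222. Both injections were thus highest in the same strip, and what the strips share beyond the index was not tested.

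By class, the older subfamilies called higher with repeat factors were 11 of 21 Lx, 12 of 79 L1M, 4 of 5 L1Lx and L1_Rod, 2 of 4 L1_Mur, L1_Mus and L1VL, and 0 of 1 L1P names tested. Within L1Md, 11 of 12 A, Tf and Gf names and 6 of 13 others were called higher. For comparison, 160 of 919 repeats outside L1 and simple repeats and 12 of 28 SINEs were. With gene factors the counts became 18 of 21 Lx and 40 of 79 L1M names, beside 382 of 919 repeats outside L1 and simple repeats and 28 of 28 SINEs. The differences between classes were not tested.

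Lx6, a member of the older Lx class, had the largest log2 fold change among older subfamilies that were named. It ranged from 883 to 1485 normalized CPM in ctrl zygotes (median 1342) and from 2162 to 5111 in ctrl 2C samples (median 2991), without overlap. The log2 fold change was 1.47 (SE 0.14, adjusted p = 2.11e-08) with repeat factors and 1.78 with gene factors. The other Lx names with many fragments depended on the scale: Lx9 rose by 0.36 (adjusted p = 8.76e-04) but stood at -0.12 with repeat totals, and Lx8 was at -0.021 (adjusted p = 0.850) but at 0.29 with gene factors.

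L1Lx_I, an older subfamily with many fragments, ranged from 1944 to 2407 normalized CPM in ctrl zygotes and from 2947 to 3522 in ctrl 2C samples. The groups did not overlap and it rose by 0.61 on the log2 scale (SE 0.07, adjusted p = 1.38e-07). The 2 named L1_Mur elements went in opposite directions under every scaling. L1_Mur2 rose by 0.87 (SE 0.10, adjusted p = 9.05e-07), with medians of 427 and 739 normalized CPM, and L1_Mur1 fell by 0.63 (SE 0.10, adjusted p = 2.22e-05), with medians of 431 and 289. Of the L1M names, 2 with few fragments fell as well, L1M4c by 0.73 and L1M1 by 0.68, but with gene factors neither passed (adjusted p = 0.0515 and 0.145).

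The same contrast in Kdm5b samples, 2C against zygotes, had 20 of 25 L1Md subfamilies higher and 1 lower, and 50 of 111 older ones higher and 6 lower. Of all 2740 repeats, 20.1% were higher and 20.9% lower. Past a log2 fold change of 1, 9 L1Md and 6 older subfamilies were higher and none lower, beside 5.26% and 8.72% of all repeats. With gene factors 24 L1Md and 84 older subfamilies were higher and 2 older lower (45.4% and 10.8% of all repeats), and with repeat totals 15 and 10 were higher and 2 and 20 lower (5.77% and 33.8% of all repeats). Called higher in each of 6 scalings were 15 L1Md and 10 older subfamilies, and 2 older ones were lower in each, beside 10.4% and 4.82% of the 1078 repeats other than simple ones that could be tested.

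The stage contrasts of ctrl and Kdm5b embryos share no sample. Of the 17 L1Md names higher in ctrl samples and the 20 higher in Kdm5b samples, 15 were in both, or 88.2% and 75% of the lists. For older subfamilies 25 names were in both, 86.2% of 29 and 50% of 50. Over all repeats tested in both contrasts, 255 were higher in both, 77.7% of 328 and 47.4% of 538, and apart from L1 and simple repeats 132 were, 83.02% of 159 and 45.5% of 290. The difference between L1Md and these was not tested. L1MdFanc_I was the only L1Md name lower in either contrast and was lower in both with repeat factors, but in Kdm5b samples its estimate with gene factors was 0.088.

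L1MdGf_I showed the largest increase among L1Md in Kdm5b samples with repeat factors. It ranged from 23.7 to 56.3 normalized CPM in Kdm5b zygotes (median 43.9) and from 182 to 308 in Kdm5b 2C samples (median 244), without overlap, and the log2 fold change was 2.63 (SE 0.17, adjusted p = 3.29e-11). F_II rose by 2.10, A_I by 2.06, A_II by 2.01, Gf_II by 1.94, F_I by 1.65, Mus_II by 1.62, N_I by 1.26 and F_III by 1.11. A_V at 0.16, Tf_III at 0.14, V_I at 0.31 and V_III at -0.0083 did not pass with repeat factors.

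Among older subfamilies Lx6 rose by 1.42 (SE 0.11, adjusted p = 8.39e-10), from 1049 to 1645 normalized CPM in Kdm5b zygotes to 2527 to 5056 in Kdm5b 2C samples, without overlap. L1Lx_III rose by 1.22 and Lx2B by 0.90. L1_Mur1 fell by 0.78, L1M4c by 0.85 and L1Lx_IV by 0.49 on the log2 scale, the last of which was at -0.080 with gene factors.

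Injection of Kdm5b-yfp mRNA moved no L1 subfamily past the threshold at either stage. In zygotes edgeR called 0 of 133 L1 subfamilies tested, 25 of them L1Md, and 0% of all 2616 repeats, and DESeq2's Wald test called 0 L1 subfamilies as well. At an unadjusted p under 0.05 there were 7 L1 subfamilies, 6 of them L1Md and 1 Lx, and 140 of all repeats. In 2C samples edgeR called 0 of 137 L1 subfamilies and 0% of 2692 repeats, and DESeq2 called 0, with 7 L1 subfamilies (3 of them L1Md) and 178 of all repeats at an unadjusted p under 0.05.

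In zygotes the estimates of L1Md lay mostly below 0 and were small. Of 25 log2 fold changes, 2 were above 0, and the median was -0.12, beside 0.0025 for older L1 and -0.0086 for all repeats. Of 108 older L1 subfamilies 55 were above 0, as were 460 of 907 repeats outside L1 and simple repeats and 1251 of all 2616. L1MdN_I had the smallest p. It ranged from 34.8 to 82.9 normalized CPM in ctrl zygotes (median 62.03) and from 40.8 to 49.4 in Kdm5b zygotes (median 44.0), and the Kdm5b range lay inside that of the ctrl zygotes. The log2 fold change was -0.46 (SE 0.11) and the adjusted p was 0.308. L1MdA_III followed at -0.28 (SE 0.07, adjusted p = 0.403), with medians of 503 and 416, then Mus_II at -0.43 and Gf_I at -0.51 (adjusted p = 0.838 and 0.857).

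Under some alternatives a few L1Md names passed the threshold in zygotes, with estimates close to those above. Without simple repeats L1MdA_III (-0.29) and L1MdN_I (-0.47) were called lower (adjusted p = 0.0498 for each), and these were the 2 of 1037 repeats called lower, or 0.193%. With no filter on low counts Gf_I (-0.50), Mus_II (-0.41) and N_I (-0.44) were called lower, among 16 of 8669 repeats (0.185%). Without ctrl zygote replicate 10, L1MdN_I and L1MdA_III were called lower (adjusted p = 0.0144 and 0.0259) and were the 2 of 2659 repeats so called (0.0752%). Over all samples left out in turn, the estimate of L1MdN_I ran from -0.53 to -0.41 and that of L1MdA_III from -0.32 to -0.24. Replicate 10 was the lowest ctrl zygote in 19 of 25 L1Md subfamilies and the highest in L1MdV_I, and had the lowest MERVL of its group, 799 fragments per 1000000 repeat fragments. Ctrl zygote replicate 5 was the highest in 16 of 25 and had the highest MERVL, 14933. Kdm5b 2C replicate 1, by contrast, was the lowest of its group in 15 of 25 L1Md subfamilies but had the highest MERVL, 101353. The part of MERVL, or of what it marks, in these extremes was not tested.

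In 2C samples the estimates lay mostly above 0. Of the 25 L1Md log2 fold changes 18 were above 0, with a median of 0.16, beside 0.067 for older L1 and -0.0027 for all repeats. With gene factors the medians were 0.27, 0.17 and 0.10, so the offset depended on the scale. L1MdGf_I was at 0.52 (SE 0.23, adjusted p = 0.740), F_II at 0.49 (SE 0.22, adjusted p = 0.740) and Gf_II at 0.37 (SE 0.17, adjusted p = 0.741), while Tf_I was at -0.28. Among older names L1VL1 had the smallest p and was at 0.58 (SE 0.21, adjusted p = 0.648). The index strips were unevenly filled, with 3 ctrl and 5 Kdm5b samples in strip 11 and 6 ctrl and 1 Kdm5b in strip 12, and within strip 11 alone the L1Md median was 0.021 and edgeR called 0 L1 subfamilies but 3 repeats higher and 22 lower of 2750 (0.909%). With the strip as a covariate it also called 0 L1 subfamilies, but 2 repeats higher and 57 lower of 2692 (2.19%), and the L1Md median was 0.21.

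**Figure D5:**
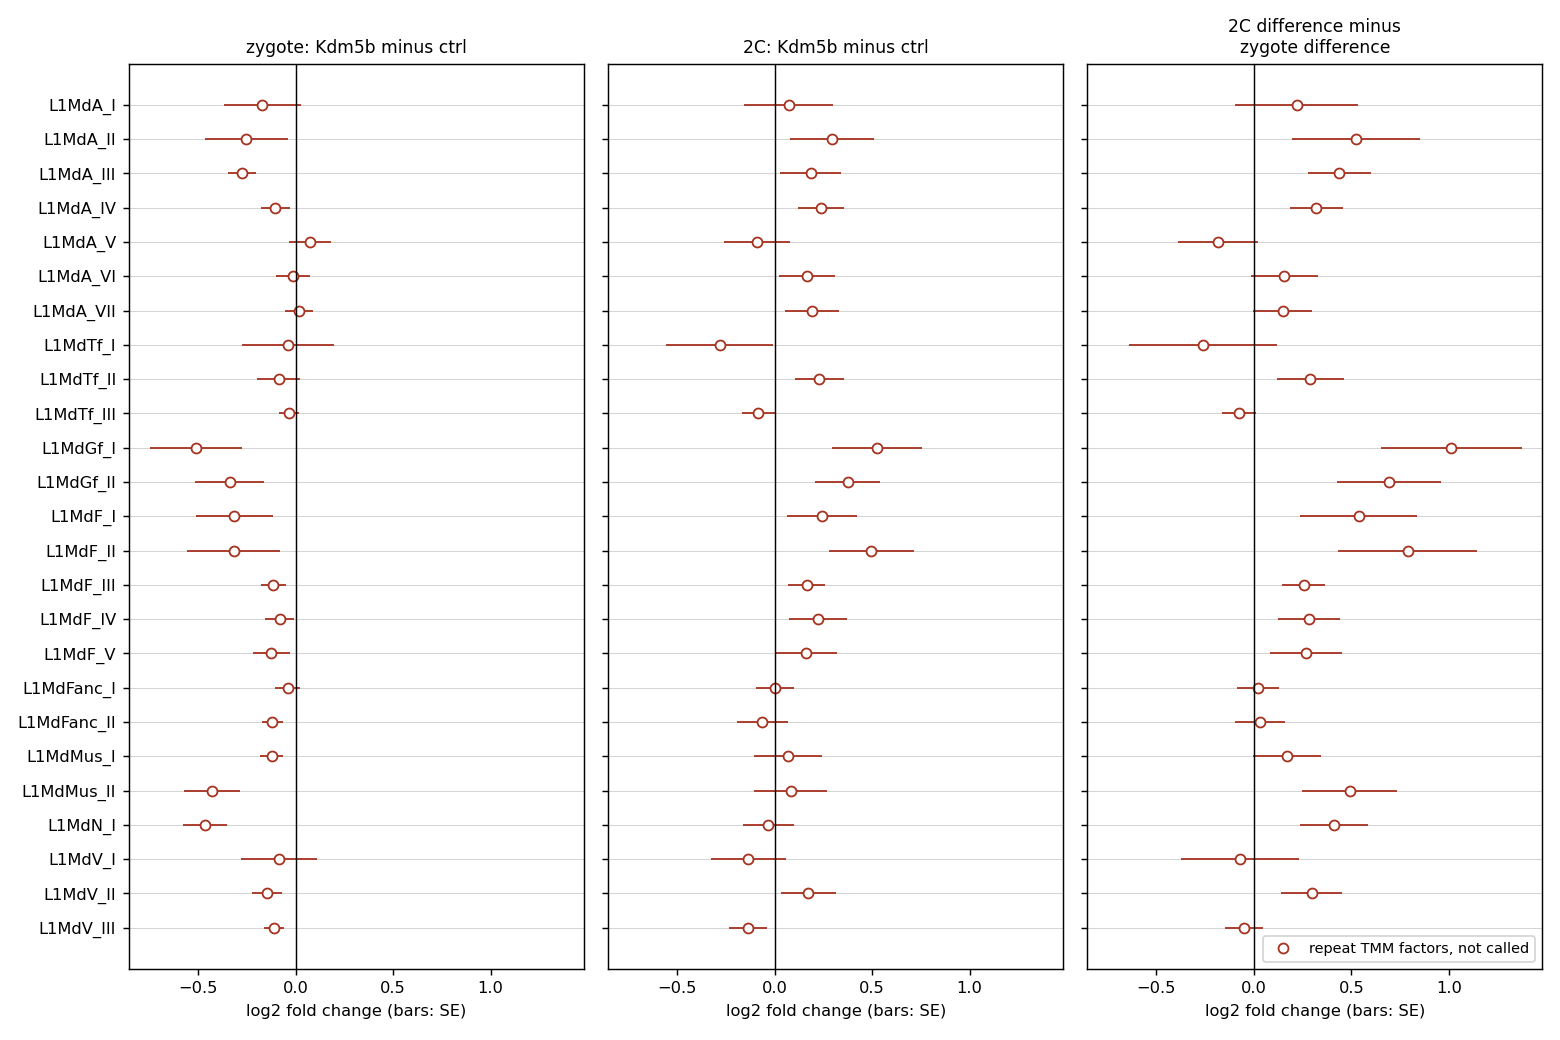
Log2 fold change with SE of the 25 L1Md subfamilies between Kdm5b and ctrl zygotes (left), between Kdm5b and ctrl 2C samples (middle), and the difference of these differences (right), with TMM factors from repeats. All circles are open, since none reached an adjusted p under 0.05; estimates lie mostly below 0 in zygotes and mostly above 0 in 2C samples.

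Whether the injection differed in its effect between stages was tested as an interaction over all 35 samples. It was called for 0 of 138 L1 subfamilies and for 0% of 3065 repeats by edgeR; at an unadjusted p under 0.05 there were 14 L1 subfamilies, 7 of them L1Md, and 204 of all repeats. DESeq2 was not run for the interaction. The L1Md median was 0.27 and that of older L1 0.028, beside -0.032 for all repeats. With gene factors these medians were 0.39, 0.16 and 0.086. Of L1 subfamilies 0 were then called, and 12 L1Md were among 211 repeats at an unadjusted p under 0.05. With repeat factors L1MdGf_I had the largest L1Md estimate, 1.01 (SE 0.36, adjusted p = 0.436). F_II followed at 0.79 (SE 0.36, adjusted p = 0.660) and Gf_II at 0.69 (SE 0.27, adjusted p = 0.537). With no filter on low counts these 3 were called higher, among 67 repeats higher (0.699%) and 48 lower of 9579. An effect of the injection on L1Md that differs between stages was thus not detected here with the filter, at a spread between replicates whose median coefficient of variation over L1Md subfamilies was 17.6% in ctrl zygotes, 12.0% in Kdm5b zygotes, 20.8% in ctrl 2C and 20.9% in Kdm5b 2C samples.

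Of 20 genes tied to L1 control, 17 could be tested in the gene table. Between injections 0 were called at either stage by edgeR's quasi-likelihood test, where 0.134% of all genes were called in zygotes and 0.0245% in 2C samples. Ncl (nucleolin), which is known to bind L1 RNA, had the smallest p of these genes at both stages. It was at -0.30 in zygotes (SE 0.07, adjusted p = 0.0941) and -0.44 in 2C samples (SE 0.16, adjusted p = 0.373) on the log2 scale. Mphosph8, a HUSH subunit, was at -0.16 in zygotes (adjusted p = 0.362) and Tex19.1, a restriction factor, at -0.49 in 2C samples (adjusted p = 0.405).

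Between stages many of these genes changed, as did 52.2% of all genes in ctrl and 58.7% in Kdm5b samples. In ctrl samples 5 rose and 9 fell, among them 2 higher and 8 lower of the 10 that silence L1 chromatin. Over all 11968 genes tested there, 3210 were higher and 3040 lower. Dnmt1, the maintenance DNA methyltransferase, fell by 2.37 on the log2 scale (SE 0.16, adjusted p = 1.74e-11), from a mean of 1802 to 350 normalized CPM. Ncl fell by 1.41 (SE 0.12, adjusted p = 7.31e-10). In Kdm5b samples 4 rose and 9 fell, beside 3625 genes higher and 3654 lower of 12390. Dnmt1 was at -2.21 (adjusted p = 6.58e-12) and Mphosph8 at -2.35 (adjusted p = 1.65e-11). No relation between these genes and L1 was tested.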

How the data were processed

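The authors trimmed reads with fastp 0.21.0, aligned them to GRCm38 with STAR 2.7.3a and deposited raw counts of fragments per RefSeq gene from featureCounts 1.5.1. They also deposited estimated counts per repeat name from SalmonTE, and removed 2 repeats that overlap Kdm5b exons. The reference sequence of each name joined all its RepeatMasker instances with 25-base flanks. The strand setting of SalmonTE is not given in the sources used here. Estimated counts were rounded here. Each comparison was fitted over the whole table with edgeR 4.0.16 in R 4.3.3 (filterByExpr with minimum count 10, TMM, quasi-likelihood test, Benjamini-Hochberg adjustment at 0.05), after removal of the Kdm5b row from gene totals; normalized CPM used TMM factors over all 35 samples. Replicates are separate samples by their labels. DESeq2 1.42.0 was an alternative. The fits were tested on simulated data.

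Named subfamilies were every L1Md name; per comparison the 3 higher and 3 lower older names with the smallest p among those called, or the 1 with the smallest p; and the 5 most abundant older names. Named genes had the 2 smallest p per comparison. Members, lists and tests were chosen with earlier results of these data known. Members that the text names outside this rule were chosen after their values were seen. Sequences of the subfamilies were not used here.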

Additional observations from a re-analysis of the deposited data

Results flagged for a closer look

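Of 188 sets of 6 to 10 sample values, 14 held an outlier by Dixon's test. In these the gap of a sample to its nearest neighbour, divided by the range, exceeded the 95% critical value. Chance gives about 1 in 20 for independent, normally distributed values, but the sets here share libraries. Of these, 4 were low values of ctrl zygote replicate 10 in normalized CPM. L1MdA_II was at 14.9 (next 60.8), L1MdA_VII at 239 (next 317), L1MdF_I at 37.1 (next 149.8) and L1MdF_III at 378 (next 503). The same library had the highest L1Md share of L1 fragments, 47.1%, and the highest L1MdV_I, 7842. In ctrl 2C replicate 5, which had the lowest MERVL of its group, L1MdF_I was low at 185 (next 327) and L1MdF_IV at 290 (next 480), and this library was the lowest of its group in 15 of 25 L1Md subfamilies. It also had the fewest L1 (134440), repeat (4131205) and gene fragments (8705584) of all 35 samples. The part of depth or MERVL in these low values was not tested.

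In Kdm5b 2C replicate 5, highest of its group in 18 of 25 L1Md subfamilies, L1MdV_II stood at 495 (next 354) and L1Lx_III at 386 (next 276). In MERVL this library ranked 4 of 6 from the lowest, at 78510. L1MdA_V was at 1323 in Kdm5b 2C replicate 6 (next 755). The other high values were L1M1 at 43.1 in ctrl zygote replicate 3 (next 29.6), L1MdMus_I at 760 in ctrl zygote replicate 2 (next 653), L1MdV_III at 938 in Kdm5b zygote replicate 3 (next 850) and L1_Mur2 at 1148 in ctrl 2C replicate 4 (next 796). Summed A, Tf and Gf fragments were high in ctrl zygote replicate 5, at 1803 per 1000000 gene fragments (next 1412).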

How the results depend on the processing

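In ctrl embryos the direction of the summed stage differences rested on the choice of repeat or gene scale. In Kdm5b embryos 2C samples were higher on both, but L1 was lower on the repeat scale without simple repeats. On the gene scale, 2C samples held 1.48 (L1Md), 1.48 (older) and 1.48 (all L1) times the zygote level in ctrl and 1.64, 1.55 and 1.59 times in Kdm5b embryos. In normalized CPM the same ratios were 1.25, 1.26 and 1.26 in ctrl and 1.33, 1.26 and 1.29 in Kdm5b embryos. On the repeat scale without simple repeats, L1Md was at 0.834 in ctrl and L1 at 0.956 in Kdm5b embryos, and without MT and structural RNA L1 in Kdm5b embryos was at 1.11, an alternative chosen after seeing the data, as was normalized CPM.

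L1 subfamilies called higher and lower in ctrl 2C against zygotes, 46 and 6, became 89 and 1 with gene totals and TMM, 74 and 2 with gene totals alone, 12 and 29 with repeat totals, 29 and 12 without simple repeats and 11 and 0 past a log2 fold change of 1. Over all repeats, gene totals alone gave 628 and 214 of 2635 and the table without simple repeats 134 and 160 of 1056. With the 2C samples of strip 11 alone, an alternative also added after the data were seen, 29 L1 subfamilies were higher, beside 203 repeats higher and 229 lower of 2978. In Kdm5b embryos the 70 and 7 became 108 and 2 with gene totals and TMM, 25 and 22 with repeat totals, and 15 and 0 past the fold change. Those lower numbered 3 with gene totals alone, 17 without simple repeats and 4 with all 35 samples in a single fit, beside 356 of 2740, 204 of 1082 and 469 of 3065 repeats. Between injected and ctrl zygotes 2 were lower without simple repeats and 3 without a filter on low counts, and without that filter 3 were higher in the interaction. DESeq2's Wald test gave 45 and 6 in ctrl and 68 and 7 in Kdm5b embryos, beside 374 and 410 of 8189 and 580 and 619 of 8068 repeats. These totals hold every repeat with a p-value, including any left without an adjusted p. Their shares are thus not comparable with those of edgeR.

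With repeat totals, the ctrl stage estimates of A_IV (-0.0068), A_V (-0.13), Fanc_II (-0.26), Mus_I (-0.37), Tf_II (-0.10), Tf_III (-0.25), V_III (-0.44) and Lx9 (-0.12) reversed, and so did Fanc_II (-0.072), Mus_I (-0.075) and Lx9 (-0.079) in Kdm5b embryos. With gene totals and TMM, Lx8 was at 0.29 in ctrl and 0.35 in Kdm5b embryos, and in the latter Fanc_I was at 0.088 and V_III at 0.40; with gene totals alone V_III was at 0.27 and Lx8 at 0.21. Scale apart, the cause was not tested.

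Leaving out each sample in turn, the ratio of summed L1Md ranged from 0.903 to 0.932 between zygotes, 1.06 to 1.09 between 2C samples, 0.897 to 0.926 between ctrl stages and 1.05 to 1.09 between Kdm5b stages. Older L1 ranged from 0.961 to 1.00, 1.07 to 1.13, 0.882 to 0.937 and 0.997 to 1.04, and all L1 from 0.947 to 0.967, 1.07 to 1.12, 0.888 to 0.930 and 1.02 to 1.05. The difference in the L1Md share ranged from -2.21 to -0.735, -1.16 to 0.0875, -0.518 to 0.987 and 0.557 to 1.81 percentage points. Between ctrl stages 39 to 53 L1 subfamilies were higher and 6 to 8 lower, and between Kdm5b stages 60 to 69 and 5 to 8. Over all repeats, 301 to 395 were higher and 304 to 401 lower of 2570 to 2700 tested between ctrl stages. Between Kdm5b stages these were 468 to 538 and 532 to 587 of 2693 to 2816. Between zygotes 0 to 0 were higher and 0 to 2 lower, with 2 only without ctrl zygote replicate 10, and between 2C samples 0 to 0 either way.

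With the replicate number as a block, 32 L1 subfamilies were higher and 5 lower in ctrl and 64 and 6 in Kdm5b embryos, and 0 in the other comparisons. Over all repeats that fit called 235 higher and 312 lower of 2635 in ctrl, and 420 and 511 of 2740 in Kdm5b embryos. Same-numbered samples deviated together in 2 of 10 zygote pairs and in none of the other pairs (a correlation over 0.1). A cut of this kind cannot show that pairing was absent, and same-numbered zygotes shared an index strip. The main fits did not pair samples by number. With 6 to 10 samples a group, 2C libraries of another day and fragments shared by a model, small differences between related names are beyond these data.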

Other observations

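L1 subfamilies differed in how much they varied between embryos of one group. Over the 25 L1Md names the coefficient of variation of normalized CPM had a median of 17.6% in ctrl zygotes, from 6.13% for L1MdFanc_II to 49.8% for L1MdF_II, and of 20.8% in ctrl 2C samples, from 4.67% for L1MdTf_III to 44.9% for L1MdTf_I. In Kdm5b zygotes it was 12.0%, from 4.03% for L1MdTf_III to 38.3% for L1MdV_I, and in Kdm5b 2C samples 20.9%, from 5.54% for L1MdV_III to 40.0% for L1MdA_II. Older subfamilies with a mean of at least 100 fragments had medians of 17.6%, 18.6%, 10.5% and 13.0% in ctrl zygotes, ctrl 2C samples, Kdm5b zygotes and Kdm5b 2C samples. These spreads were not compared by a test.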
